A study of Mus musculus with 25 samples.

Results

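In CD8+ T cells of the mouse spleen, 1975 of the 33492 one-kilobase bins that anchor a listed H3K27ac chromatin contact in the WT control library had 15 or more partners, and these are called hub bins here. They are 5.90% of the anchor bins of that library, and 44843 bins anchored a pair in any of the 6 libraries. The bins were chosen by their partner number in the WT control library alone, so that number is a description of them and not a result. Partner numbers of the hub bins ran from 15 to 129 with a median of 21, against a median of 2 over all anchor bins of the library. Partners are often neighbouring bins: with adjacent partner bins counted once, the median was 9 and 268 of the hub bins reached 15. At the edge of the rule, the 211 bins with exactly 15 partners had a median coverage of 3195 counts and the 243 bins with 14 partners one of 3010 counts.

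The 6 libraries come from a study of the Il2ra super-enhancer, and the groups are the 3 genotypes WT, Intron and Upstream, each with a control library (pre-activated cells with no further treatment) and an IL-2 library, 1 library each. All carry the strain label C57BL/6J. Intron and Upstream are the words of the library titles, which the labels otherwise call mutants, and the study describes its mutants as CRISPR deletions; the labels do not state the deleted coordinates, the number of animals or the dose and time of IL-2 for these libraries. The labels' protocol has CD8+ T cells stimulated for 2 days, rested for 4 h and then given IL-2, so the control cells of every genotype were activated cells too. The 19 ChIP-seq samples of the series were not analysed here.

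HiChIP joins a proximity ligation of chromatin with an immunoprecipitation, here of histone H3 acetylated at lysine 27, a mark of active promoters and enhancers, so it lists pairs of loci that lie close together and at least one of which carries the mark. A hub is a bin paired with many others; long clusters of active enhancers can give such bins. IL-2 signals in T cells through the receptor chains CD25 (Il2ra), Il2rb and Il2rg and the Jak kinases to STAT5, which activates Cish, Socs1, Bcl2 and Il2ra itself.

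Promoter windows are shown for Satb1, Rbpj, Gimap1, Il4ra and Nsmce1 because their starts lie in bins among the 15 richest. The start of Gimap3 lies in such a bin too, and its window is not shown. Cish and Il2ra, with fewer partners, are shown because they are hub genes of IL-2 signalling described below. Each line is the 250 bases before the RefSeq start of the gene, from the GRCm38.p6 promoter table, 5′ to 3′ on the gene's strand. Capitals mark matches, on either strand, to the motifs searched: STAT (TTCNNNGAA), AP-1 (TGANTCA), ETS (CCGGAA), RUNX (TGTGGT), the SP/KLF GC box (GGGCGG), TCF/LEF (CTTTGA) and the E-box (CACGTG).
Satb1: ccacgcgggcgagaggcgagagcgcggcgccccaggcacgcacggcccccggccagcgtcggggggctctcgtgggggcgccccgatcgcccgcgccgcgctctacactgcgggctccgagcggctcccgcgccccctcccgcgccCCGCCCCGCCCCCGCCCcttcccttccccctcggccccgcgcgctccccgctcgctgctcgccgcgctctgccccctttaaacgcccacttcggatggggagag
Rbpj: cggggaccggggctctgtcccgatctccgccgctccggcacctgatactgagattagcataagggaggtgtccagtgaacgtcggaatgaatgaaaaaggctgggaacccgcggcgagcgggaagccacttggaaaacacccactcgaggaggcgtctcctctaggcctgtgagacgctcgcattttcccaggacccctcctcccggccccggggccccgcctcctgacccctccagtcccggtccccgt
Gimap1: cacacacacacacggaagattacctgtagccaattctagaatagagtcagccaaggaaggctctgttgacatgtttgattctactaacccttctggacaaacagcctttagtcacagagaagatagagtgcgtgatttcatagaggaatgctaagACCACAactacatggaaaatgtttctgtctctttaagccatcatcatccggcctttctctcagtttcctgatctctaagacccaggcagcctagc
Il4ra: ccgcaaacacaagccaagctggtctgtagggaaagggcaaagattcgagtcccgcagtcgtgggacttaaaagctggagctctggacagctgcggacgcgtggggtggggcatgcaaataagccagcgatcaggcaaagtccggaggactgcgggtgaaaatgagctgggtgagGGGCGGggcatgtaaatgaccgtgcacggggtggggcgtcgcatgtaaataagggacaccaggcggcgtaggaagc
Nsmce1: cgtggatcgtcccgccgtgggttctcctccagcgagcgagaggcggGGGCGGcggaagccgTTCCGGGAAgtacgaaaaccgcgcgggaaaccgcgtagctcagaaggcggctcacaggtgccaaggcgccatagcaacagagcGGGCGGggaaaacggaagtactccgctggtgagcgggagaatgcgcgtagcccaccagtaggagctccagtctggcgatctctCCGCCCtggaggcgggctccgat
Cish: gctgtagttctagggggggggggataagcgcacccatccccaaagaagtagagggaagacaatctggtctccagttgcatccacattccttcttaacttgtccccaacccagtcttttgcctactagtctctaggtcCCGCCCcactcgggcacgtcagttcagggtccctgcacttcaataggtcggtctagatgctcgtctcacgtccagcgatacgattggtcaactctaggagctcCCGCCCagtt
Il2ra: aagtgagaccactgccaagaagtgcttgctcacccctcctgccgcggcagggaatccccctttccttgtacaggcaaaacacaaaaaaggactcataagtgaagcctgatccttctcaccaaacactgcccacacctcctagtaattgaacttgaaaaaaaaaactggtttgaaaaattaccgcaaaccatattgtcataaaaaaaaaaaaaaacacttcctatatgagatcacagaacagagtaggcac
The windows lie at chr17:51832648-51832897 for Satb1 (minus strand), chr5:53590096-53590345 for Rbpj (plus strand), chr6:48738797-48739046 for Gimap1 (plus strand), chr7:125552021-125552270 for Il4ra (plus strand), chr7:125491444-125491693 for Nsmce1 (minus strand), chr9:107296409-107296658 for Cish (plus strand) and chr2:11642542-11642791 for Il2ra (plus strand). Satb1 holds 3 overlapping or adjoining GC boxes 93 to 104 bases before its start, Il4ra holds 1 and Cish holds 2. Nsmce1 has GC boxes 204, 106 and 23 bases before its start. The Nsmce1 window has a STAT match, 189 bases before the start, that overlaps the ETS match. Gimap1 has a RUNX match and no GC box, and the Rbpj and Il2ra windows hold none of the 7 motifs.

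The promoter table matched 399 genes whose start lies in a hub bin, with 479 start windows. GC boxes were in 59.1% of these windows, in 61.0% of the windows in other listed bins of the WT control library and in 42.6% of all 21262 windows of the table. STAT matches were in 8.56% of the hub windows, 5.36% of the windows in other listed bins and 6.58% of all windows. ETS matches were in 24.6% of the hub windows, 26.0% of the windows in other listed bins and 3188 of all 21262 windows. The median GC content was 61.2% at hub starts, 60.4% in other listed bins and 55.6% over the table. These shares are descriptions and were not tested.

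Outer ends of genes were a larger share of the hub bins than of the other anchor bins, and most hub bins lay elsewhere. Of the 1975, 405 (20.5%) held an outer end, the first or last base of an annotated protein-coding gene. Another 949 (48.1%) lay inside a gene, and 621 (31.4%) touched none. Bins inside a gene include some with an internal start site, as the richest Satb1 and Rbpj bins below. Over the other 31517 anchor bins 13.2% held an outer end and 55.0% lay inside a gene. A start site was in 20.2% of the hub bins and in 11.5% of the others. Hub bins outside genes lay a median of 12.8 kb from the nearest one, and 90 of them were more than 50 kb away.

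Of 21896 protein-coding genes, 6266 had a listed bin in the WT control library and 733 had a hub bin, which is 11.7% of the listed ones. The gene lists below differed in their share of hub genes, and they were chosen with earlier results known, so their counts are descriptions. Of 16 genes of the T cell receptor and CD8 identity, 14 had a hub bin, among them Cd3d, Cd3e and Cd3g of the receptor complex, Cd8a and Cd8b1 and the kinase gene Lck. Zap70 reached 8 partners and Cd28 reached 4. Of 19 transcription factors of T cells, 11 had one, among them Satb1, Bach2, Ets1, Ikzf1, Foxp1, Bcl11b, Tcf7 and Tbx21. Gata3 reached 8 partners and Runx1 reached 4.

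Genes of IL-2 signalling were hub genes in most cases. Of 19 targets of IL-2 and STAT5, 17 had a hub bin, and the exceptions were Socs2, with no listed bin, and Socs3, with at most 6 partners. Of 11 genes of the IL-2 receptor and of Jak and Stat proteins, 6 had one (Il2ra, Il2rb, Il4ra, Jak1, Stat3 and Stat5b), whereas the common chain Il2rg reached 11 partners, Jak3 reached 4 and Stat5a reached 13. Of 21 activation, AP-1 and NF-kB factors 8 had a hub bin, of 12 effector genes 3 (Gzmb, Tnf and Nkg7), of 11 checkpoint and costimulation genes 2, of 10 genes of naive cells and homing 3, of 6 regulators of RNA stability 1 and of 12 growth and housekeeping genes 4.

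No marker of another cell type had a hub bin: 0 of 7 for B cells, 0 of 7 for myeloid cells, 0 of 5 for CD4 or regulatory T cells, 0 of 4 for NK cells and 0 of 4 for erythroid cells. Csf1r, Foxp3, Ncr1 and Hbb-bt had no listed bin at all. Cd4 had 1 bin with 1 partner, and the highest value over these lists was the 8 partners of Cd79a. Over all 21896 protein-coding genes 3.35% had a hub bin, so 0 in lists this short is near the general share. Whether the markers at the hubs match the CD8 T cell label of the libraries was not tested.

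Hub bins lay in runs. Joining hub bins no more than 5 kb apart gave 945 groups, of which 580 were single bins and 19 held 10 or more bins, with 344 bins in them (17.4% of all). The longest run was the T cell receptor alpha locus, with 38 hub bins over 46.0 kb of chromosome 14 at the Traj segments and Trac. The next were 35 bins over Rnf43, Supt4a and Tspoap1, 26 bins in Septin9, 24 bins beside Clec2d and Cd69, and 23 bins over Cish, the STAT5-induced inhibitor of cytokine signalling, and its neighbour Mapkapk3. A run of 22 bins on chromosome 5 held no gene and lay between Smim20, 115 kb away, and Rbpj. The receptor beta locus had 12 bins, the Ltb, Tnf and Lta cluster 11, the Gimap genes 17 and 10 in 2 runs, and Ets1 13. The median hub bin had 5 other hub bins among its partners, and 284 had none.

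The richest hub was the bin at the start of Satb1 (chr17:51832001-51833000), a chromatin organiser and transcription factor of T cells. It had 129 partners in WT control, 148 in WT with IL-2, 86 in Intron control, 118 in Intron with IL-2, 114 in Upstream control and 125 in Upstream with IL-2. Its coverage counts were 16143, 19358, 10117, 14638, 14083 and 15096 in the same order. The Intron control library was lowest in both measures, and that library also listed the fewest pairs of the 6. The partners lay on both sides of the gene, 94 of them at higher coordinates, and the farthest was 629 kb away.

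The start of Rbpj (chr5:53590001-53591000), the DNA-binding partner of Notch, came next with 119, 138, 60, 88, 108 and 120 partners in the same order of libraries. Of its 119 WT control partners 112 lay at lower coordinates, which is where the run of 22 hub bins lies. Both Intron libraries were below the other 4. The bin before it (chr5:53589001-53590000) had 80, 108, 28, 52, 75 and 94 partners.

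**Figure D1:**
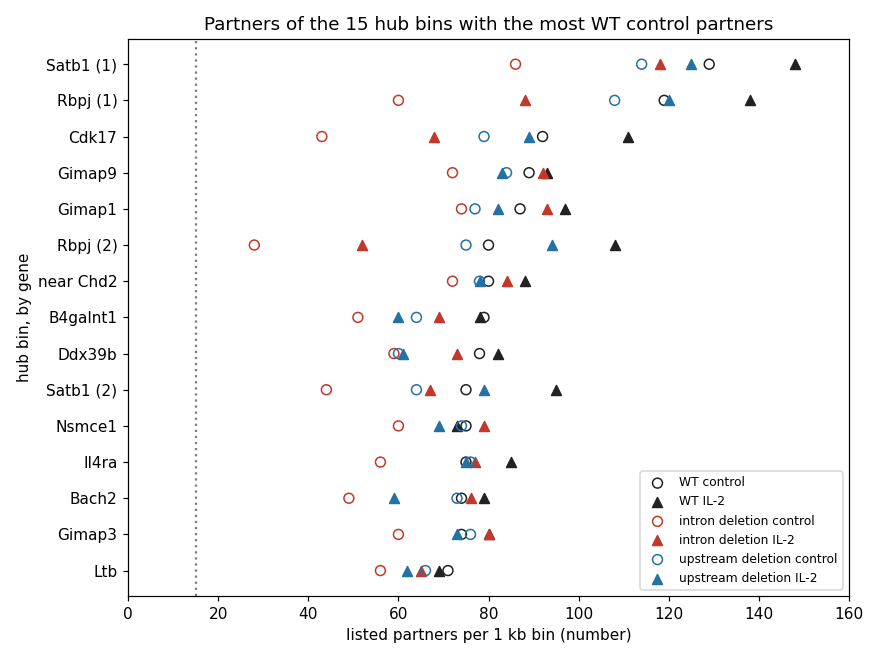
Listed partners (x axis, number per 1 kb bin) of the 15 hub bins with the most WT control partners (y axis, by gene; 1 and 2 mark different bins of a gene). Open circles are control and filled triangles IL-2 libraries, black WT, red Intron and blue Upstream, and the dotted line is the rule's 15; the Satb1 start bin runs from 86 to 148 and every point is right of the line.

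The other bins of the first 15 belonged to genes with several roles. Cdk17, a cyclin-dependent kinase, had 92 partners in WT control and 43 in Intron control. The lymphocyte GTPase genes Gimap9, Gimap1 and Gimap3 had 89, 87 and 74 in WT control and 72, 74 and 60 in Intron control. A bin 76.3 kb from Chd2 had 80 and 72, B4galnt1 79 and 51, the RNA helicase gene Ddx39b 78 and 59, and Nsmce1 75 and 60. The cytokine receptor gene Il4ra had 75 and 56, the repressor gene Bach2 74 and 49, and the cytokine gene Ltb 71 and 56. All 15 bins kept more than 15 partners in every library. Intron control listed the fewest pairs, so these partner numbers are not at equal depth. With the 38879 pairs of most contacts kept in each library, Gimap9, Gimap1 and Gimap3 had 67, 66 and 50 in WT control. In Intron control they had 72, 74 and 60. Chd2 (69 and 72), Ddx39b (57 and 59), Nsmce1 (57 and 60) and Bach2 (41 and 49) were higher there too. Cdk17 (68 and 43), B4galnt1 (58 and 51), Il4ra (58 and 56) and Ltb (61 and 56) stayed lower.

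Pairs that touch a hub bin were 56.2% of the 72698 pairs of the WT control library and held 62.3% of its contacts. In the other 5 libraries the share of pairs was 50.8% to 59.7%. Both ends were hub bins in 18.8% of the hub pairs of WT control. The median distance was 19 kb with a hub bin and 11 kb without, and 5.56% against 1.60% of pairs spanned 100 kb or more. A hub bin's farthest partner lay a median of 73 kb away, and the record was 874 kb, from a bin in Bcl11b. Bins of the growth regulator gene Myc reached 822 kb and the receptor beta locus 500 kb. For 102 hub bins (5.16%) all partners lay on 1 side, as for 51 partners of a bin in Ago2 and 50 of a bin in Gimap8.

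**Figure D2:**
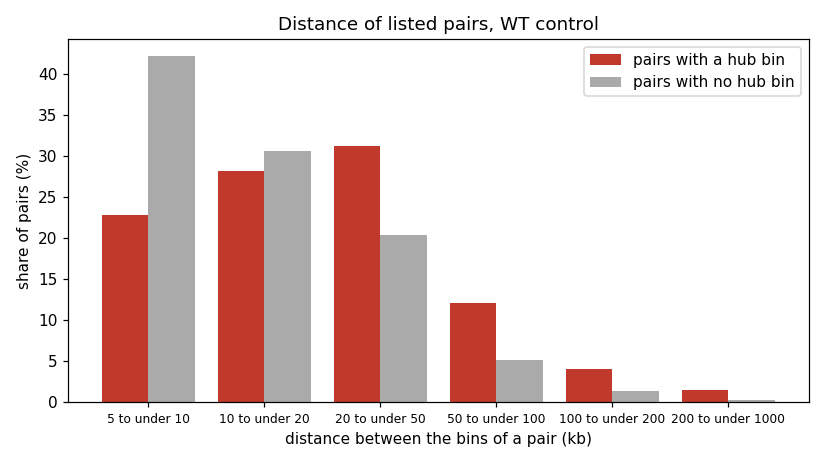
Share of listed pairs (y axis, %) by the distance between their bins (x axis, kb) in the WT control library, for pairs with a hub bin (red) and without (grey). Of the pairs without a hub bin 42.2% are under 10 kb, against 22.86% of the pairs with one.

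Partner number rose with coverage, but the measures did not pick the same bins. The median coverage of a hub bin in WT control was 4371 counts (95% exact Poisson interval for such a count 4242 to 4503, counting error only) against 786 for the other anchor bins. Of the hub bins, 1010 (51.1%) were among the same number of bins with the most coverage. Across the anchor bins of this library, which share its depth, Spearman's rho was 0.638, and it was 0.508 across the hub bins. The highest coverage of a bin that was no hub was 14451 counts at Ewsr1, with 10 partners, and the lowest of a hub bin was 751 at Rnf43, with 15.

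Depth differed between the libraries, and partner numbers moved with it. The libraries listed 38879 (Intron control) to 94922 (WT with IL-2) pairs, all with at least 20 contacts, and summed bin coverage was 26172146 to 60968364 counts. Of the 1975 hub bins, 1854 had 15 or more partners in WT with IL-2, 775 in Intron control, 1482 in Intron with IL-2, 1374 in Upstream control and 1368 in Upstream with IL-2, with median partner numbers of 25, 12, 20, 18 and 18. In all 6 libraries 721 bins (36.5%) reached 15. With the 38879 pairs of most contacts kept in every library, 843, 827, 775, 777, 871 and 843 hub bins reached 15 in the order WT, Intron, Upstream with control first, the medians were 12 to 13, and 469 did so in all 6. At the same number of pairs the libraries thus held similar numbers of hubs.

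**Figure D3:**
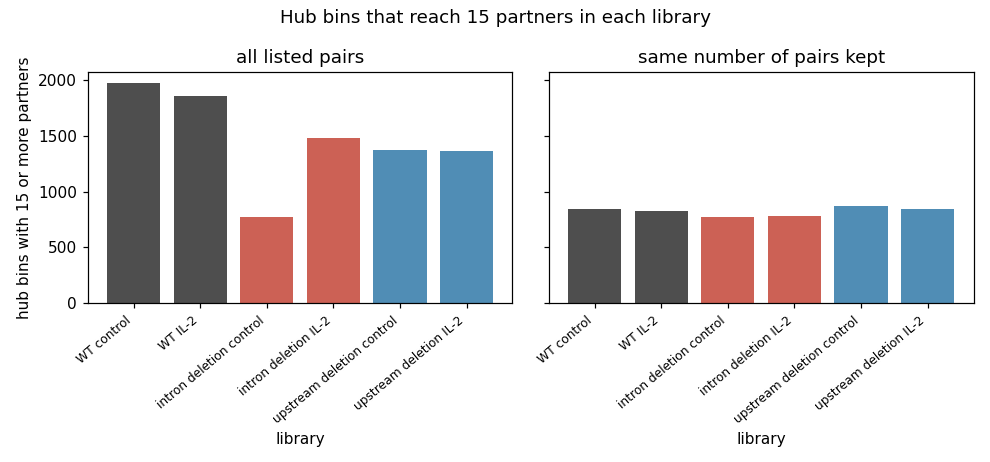
Number of the 1975 hub bins with 15 or more partners (y axis) in each library (x axis), with all listed pairs (left) and with the 38879 pairs of most contacts in each library (right). The bars run from 775 to 1975 on the left and from 775 to 871 on the right.

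The cut at 15 partners was crossed in some genotypes and not in others. In both WT and both Upstream libraries but neither Intron library 88 bins had 15 or more, and 12 had so in the WT and Intron libraries but neither Upstream library; with the same number of pairs in every library these were 63 and 4 bins. Only the WT control library reached 15 at 66 bins. Each genotype and treatment has 1 library and WT control chose the members, so these counts have no test, and genotype and library cannot be told apart for them.

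At the Il2ra locus, within 100 kb of the gene, there were 7 hub bins, and they had fewer listed partners in all 4 deletion libraries than in WT. The rule chose them by their WT control partners, and the libraries differ in depth, so part of this is built in. Over all hub bins the median partner numbers (control, IL-2) were 21 and 25 in WT, 12 and 20 in Intron and 18 and 18 in Upstream. The first Il2ra bin (chr2:11644001-11645000, inside the gene) had 41 partners in WT control, 51 in WT with IL-2, 4 in Intron control, 11 in Intron with IL-2, 17 in Upstream control and 27 in Upstream with IL-2. Its coverage was 6032, 9434, 1469, 2368, 3829 and 4967 counts. The order of genotypes was WT, Upstream, Intron under both treatments, and it was the same with equal numbers of pairs, at 27, 38, 4, 4, 15 and 18 partners. The start bin (chr2:11642001-11643000) had 32, 39, 4, 9, 15 and 18 partners, and 18, 25, 4, 5, 10 and 11 with equal numbers of pairs.

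Upstream of the gene, a bin 4.79 kb before it (chr2:11637001-11638000) had 30, 31, 5, 11, 9 and 17 partners. A bin inside Rbm17, the neighbouring splicing factor gene, had 18, 32, 3, 4, 7 and 9. A bin 15.8 kb from Rbm17 (chr2:11619001-11620000) had 16, 30, 2, 7, 0 and 0 and was not listed in either Upstream library. A bin inside Il2ra (chr2:11645001-11646000) had 16, 33, 0, 1, 6 and 12. A bin whose sequence was deleted and one that lost its signal cannot be told apart here, since the deleted coordinates were not at hand.

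The question of how IL-2 and the deletions change the hubs was tested on the 4 deletion libraries, which the choice of members did not use, over all 18854 bins listed in each of them. Of the 1975 hub bins 1956 were among these, and 19 were not listed in at least 1 library and have no test. Coverage was fitted with edgeR with genotype and treatment as terms, 2 libraries a level and 1 residual degree of freedom. Nothing says that the libraries came from separate animals, and no genotype and treatment has a replicate. The 1 residual degree of freedom is how far the IL-2 change differs between both genotypes. The p-values are set against that difference, shared in part across bins, and not against a spread between like libraries.

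Coverage of 593 hub bins (30.3%) differed between the Intron and Upstream libraries at an edgeR adjusted p under 0.05, against 28.7% of all bins tested. Of these, 120 were higher and 473 lower in Intron. All 593 had the same sign under both treatments, which the test largely requires. Its residual grows as the genotype difference changes with IL-2, so the shared sign is no further support. Over all bins 15.1% were higher and 13.6% lower. The median log2 difference was -0.09 over the hub bins and 0.01 over all bins. The overall share of calls was thus near that of all bins. Among called hub bins 79.8% were lower in Intron against 47.5% among called bins in general; the members were chosen for many partners in WT, and the part of that choice in this split was not tested.

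The lowest values in Intron were at Apobec3, which encodes a cytidine deaminase that restricts retroviruses. The hub bin inside it (chr15:79900001-79901000) had coverage counts of 200 and 283 in the Intron libraries (control, IL-2), 4145 and 3223 in the Upstream libraries and 5842 and 5440 in WT. The Intron libraries stood apart from the other 4, at a log2 difference from Upstream of -3.88 ± 0.14 (SE; edgeR adjusted p = 1.12e-06). Its partners numbered 1 and 1 in Intron, 15 and 10 in Upstream and 16 and 18 in WT.

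A run of 4 bins 19.0 to 22.0 kb from Ly6e, a gene of a membrane-anchored surface protein, held the next values. The bin with the largest difference (chr15:74933001-74934000) had counts of 684 and 1015 in Intron, 4658 and 4100 in Upstream and 4884 and 5372 in WT. It had 1 and 2 partners in Intron against 29 and 26 in Upstream. Its log2 difference was -2.33 ± 0.11 (SE; edgeR adjusted p = 4.80e-06), and the other 3 bins were at -2.05, -2.02 and -1.96.

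The 5 largest differences in the other direction were at Fam78a, Cd8b1 (2 bins), H2-DMa and near Cd8a. A bin inside Cd8b1 (chr6:71334001-71335000), which encodes the CD8 beta chain, had counts of 2551 and 4094 in Intron, 1724 and 1696 in Upstream and 1764 and 2117 in WT. Its log2 difference was 0.97 ± 0.11 (SE; edgeR adjusted p = 2.21e-04). The next bin of Cd8b1 (0.87) and a bin 12.4 kb from Cd8a (0.85) were also higher, with edgeR adjusted p = 6.00e-04 and 1.35e-04. Fam78a had the largest difference, 1.10 ± 0.13 (SE; edgeR adjusted p = 3.18e-04), with 19 and 24 partners in Intron and 10 and 6 in Upstream. H2-DMa, which helps load MHC class II molecules, had 0.94 (edgeR adjusted p = 2.09e-04).

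**Figure D4:**
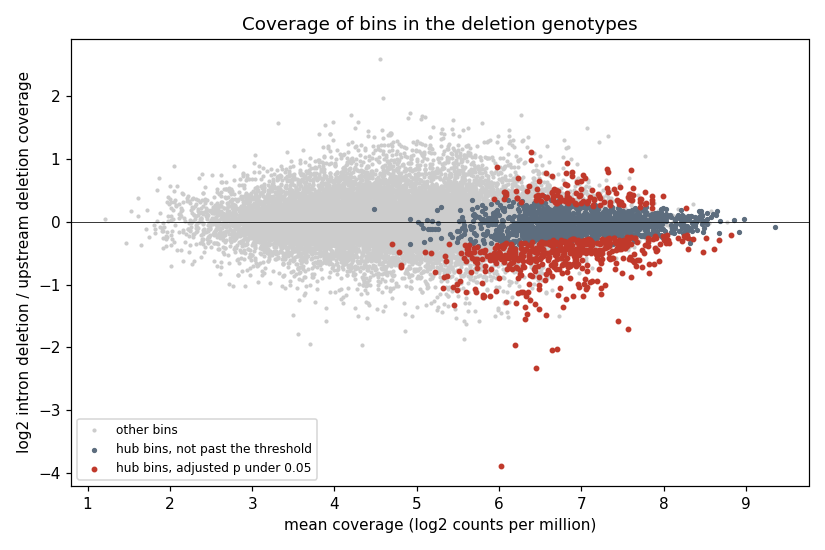
Log2 difference of coverage between the Intron and Upstream libraries (y axis) against mean coverage (x axis, log2 CPM) for 18854 bins. Grey points are bins that are no hub, dark blue points hub bins that did not pass the threshold and red points the 593 that did, of which 473 lie below 0; the lowest point is the Apobec3 bin at -3.88.

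Some runs of hub bins differed along most of their length and others hardly at all. Of the 19 runs with 10 or more bins, 2 were called lower in Intron at every bin, 7 at more than 50% of their bins, and 4 had no bin called by edgeR. In the run of 22 bins between Smim20 and Rbpj all 22 were called lower in Intron, with a median log2 difference of -1.10, and the median partner numbers were 23.5 and 47.0 in WT (control, IL-2), 4.5 and 9.0 in Intron and 19.0 and 36.5 in Upstream. All 14 bins beside Dusp2, a phosphatase gene of activated lymphocytes, were lower too (median -0.79). In the run over Sla and Tg 15 of 17 bins were lower (median -0.55), beside Tomm20 13 of 16 (-0.43), and over Cish and Mapkapk3 13 of 23 (-0.48). At Prkcq, a kinase gene of T cell receptor signalling that lies on chromosome 2 as Il2ra does, 6 of 8 bins were higher (median 0.37). The longest runs had few calls: 9 of 38 bins at the receptor alpha locus, 4 lower and 1 higher of 35 over Rnf43, 2 of 26 in Septin9 and 1 of 24 beside Clec2d. Ets1 (13 bins) and the Ltb, Tnf and Lta cluster (11 bins) had none. In all, 47 hub bins in 23 runs were lower at least 2-fold and 1 was higher at least 2-fold.

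The calls in the gene lists are read against all bins (15.1% higher, 13.6% lower) and all tested hub bins (6.13% higher, 24.2% lower). In the list of T cell receptor and CD8 identity genes 7 of 41 tested hub bins (17.1%) were higher in Intron and 3 (7.32%) lower, with a median log2 difference of -0.04. The bins that were higher belonged to Cd8b1, Cd8a and Lat. For T cell transcription factors 5 of 90 (5.56%) were higher and 13 (14.4%) lower (median 0.00). The bin beside the richest bin (chr17:51833001-51834000), which also holds a start of Satb1, was lower, with 41, 74, 2, 12, 40 and 55 partners and a log2 difference of -1.05 (edgeR adjusted p = 7.65e-05). The 3 hub bins of Tbx21, the T-bet gene, were lower by 0.50 to 0.65 on the log2 scale. The 5 bins that were higher were 4 of Ikzf1, a zinc finger factor of lymphocytes, at 0.32 to 0.45, and 1 of Tcf7 at 0.56. The shares of this list and of the receptor list lay near or below those of all bins. Against all tested hub bins, both lists had a smaller share that was lower, and the receptor list had a larger share that was higher (17.1% against 6.13%). These differences were not tested.

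The lists of IL-2 genes had calls in 1 direction. For the IL-2 receptor, Jak and Stat genes 8 of 16 tested hub bins were lower in Intron and 0 higher (median -0.27). The Il2ra bins had log2 differences of -1.17 ± 0.10, -0.99 ± 0.12 and -0.84 ± 0.11 (SE), with edgeR adjusted p = 8.48e-05, 3.46e-04 and 5.04e-04. Il2rb had 2 bins that were lower, at -0.38 and -0.50. For the IL-2 and STAT5 targets 21 of 46 (45.7%) were lower and 0 higher (median -0.27), as at bins of Lif (-0.98), Tnfrsf4 (-0.87), Cish (-0.76), Pim1 (-0.70) and Osm (-0.59). The Cish bins at chr9:107296001-107297000 and chr9:107297001-107298000 (-0.25 and -0.34) were not called. The fit averages over the treatments. In control and IL-2 libraries the difference was -0.41 and -1.13 at the named Cish bin, -0.64 and -1.36 at Lif and -0.42 and -0.79 at Osm. It was -0.40 and -0.35 at a bin of Pim1 (chr17:29490001-29491000). The same direction held for 8 of 12 bins (66.7%) of activation factors, with Batf3 at -1.12, Irf4 at -0.73 and Fosl1 at -0.71, and for 5 of 8 bins (62.5%) of effector genes, with Nkg7 at -0.60 and Gzmb at -0.58. These shares were above the 24.2% of all tested hub bins; the difference was not tested. The list of growth and housekeeping genes had 0 calls among 7 bins by edgeR.

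IL-2 changed the coverage of no hub bin at an edgeR adjusted p under 0.05 in the 4 deletion libraries, and of 0 (0%) of all bins. The smallest edgeR adjusted p over the hub bins was 0.291, and DESeq2 called 2 hub bins and 3 of all bins. An unadjusted edgeR p under 0.05 was found for 352 of the 1956 hub bins and 2610 of all 18854 bins. In a fit of all 6 libraries, which includes the one that chose the members, 0 were called. This did not hold when either Intron library was left out. Many hub bins and many other bins then passed, with 1 Intron library left in the fit. The fit of the 4 libraries takes the IL-2 change to be equal in both deletion genotypes, so a difference between them counts as error. The measured changes were not of equal size: across the hub bins the log2 change with IL-2 had an SD of 0.09 in Intron, 0.30 in Upstream and 0.25 in WT, and counting error alone gives a median of 0.036, 0.033 and 0.030. The same spread over all 18580 bins listed in the 6 libraries was 0.11, 0.30 and 0.26. With 1 library per genotype and treatment the difference between genotypes was not tested, and genotype and library cannot be told apart.

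In Intron 0 hub bins moved by 1.5-fold in either direction, and 0% of all bins did. In Upstream 77 hub bins were higher with IL-2 by 1.5-fold and 39 lower, and 3.60% and 2.13% of all bins were. In WT 46 were higher and 16 lower, against 2.67% and 1.11% of all bins. Across the 1956 hub bins, which share the libraries and their depth, the WT and Upstream changes had a Pearson r of 0.957 (Spearman 0.943), and the Intron and Upstream changes one of 0.651 (Spearman 0.622). Of the 1956 hub bins 1422 (72.7%) had the same sign of change in both deletion genotypes.

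**Figure D5:**
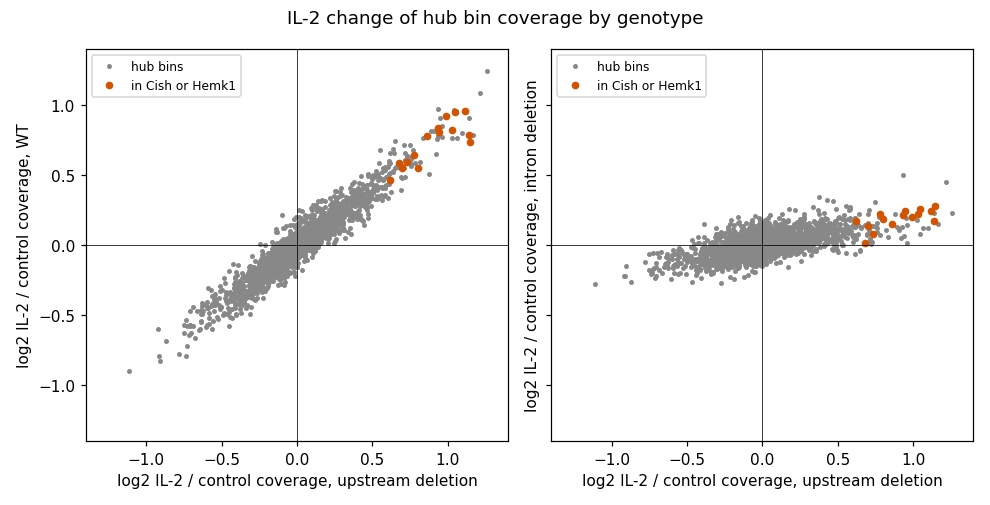
Log2 ratio of IL-2 to control coverage of hub bins in WT (left, y axis) and Intron (right, y axis) against that in Upstream (x axis). Grey points are hub bins and orange points bins in Cish or Hemk1; values run from -1.11 to 1.26 in Upstream, from -0.90 to 1.24 in WT and from -0.28 to 0.50 in Intron.

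The 10 hub bins with the highest IL-2 values included bins in or near Lta, Cish and Pim1, which are known targets of STAT5, and bins in Hemk1 beside Cish. They did not pass the test and were picked after their values were seen. A bin of Lta, the lymphotoxin alpha gene, had counts of 3444 and 9354 in WT (control, IL-2), 2812 and 4753 in Intron and 2646 and 6338 in Upstream. Scaled for library size, its log2 change was 1.24 in WT, 0.23 in Intron and 1.26 in Upstream. Its listed partners, which are not scaled, numbered 27 and 56, 24 and 43, and 20 and 48. With the same number of pairs in every library they were 20 and 47, 24 and 26, and 13 and 43. A bin of Cish (chr9:107298001-107299000) had counts of 4055 and 8962 in WT, 2549 and 4388 in Intron and 3471 and 7175 in Upstream, at log2 changes of 0.95, 0.25 and 1.05. Over the run of 23 bins at Cish and Mapkapk3 the median change was 0.59, 0.14 and 0.78 in WT, Intron and Upstream.

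Further bins had the same order of genotypes. A bin 3.89 kb from Pim1, a survival kinase gene, changed by 0.90 in WT, 0.22 in Intron and 1.14 in Upstream (log2). A bin 23.1 kb from Emsy was at 1.08, 0.45 and 1.22, with 18 and 40 partners in WT, 1 and 17 in Intron and 13 and 36 in Upstream. Those partner numbers are not scaled, and Intron with IL-2 listed 72743 pairs against 38879 in Intron control. A bin of Bcl2, the survival gene, was at 0.71, 0.25 and 0.71, and a bin of Osm at 0.91, 0.19 and 0.95. Among the 46 hub bins of IL-2 and STAT5 targets 36 had a positive IL-2 estimate in the deletion libraries, with a median of 0.27, and over all hub bins 1010 of 1956 did, with a median of 0.01. The shift was not particular to that list: all 8 bins of effector genes (median 0.26) and all 7 of growth and housekeeping genes (median 0.19) had a positive estimate.

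The hub bins with the lowest IL-2 values again did not pass the test and were picked after their values were seen. A bin in Cdh23 and Vsir, where Vsir encodes the checkpoint protein VISTA, had counts of 3955 and 2436 in WT, 3816 and 4538 in Intron and 3847 and 1778 in Upstream, at log2 changes of -0.90, -0.28 and -1.11. A bin of Tcf7, the gene of the naive and memory factor TCF-1, was at -0.48, -0.22 and -0.71. Its listed partners, which are not scaled, numbered 17 and 9 in WT, 18 and 22 in Intron and 11 and 5 in Upstream. A bin 1.66 kb from Cd2bp2 was at -0.80, -0.22 and -0.91.

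Contact counts gave 1 call. Summed over the 28973 pairs listed in all 4 deletion libraries, contacts rose with IL-2 at 1 of 1953 tested hub bins, against 0.00564% of the 17744 bins tested, so that this hub bin was the only bin called. It lies 35.5 kb from Nabp1 (chr1:51514001-51515000), which encodes a protein that binds single-stranded DNA, and in no gene. The log2 change was 0.79 ± 0.12 (SE; edgeR adjusted p = 0.0289). Its partners numbered 22 and 59 in WT (control, IL-2), 5 and 28 in Intron and 20 and 50 in Upstream, and its coverage 3360 and 7553, 1896 and 3866, and 3122 and 5959. The IL-2 library was higher in each genotype for both measures, which are not scaled for depth here. Intron with IL-2 listed 72743 pairs against 38879 in Intron control. By DESeq2, and with at least 100 contacts required in every library, 0 hub bins were called. At an unadjusted edgeR p under 0.05 there were 308 hub bins and 1419 of all 17744 bins. Pairs lost from a library do not enter these sums.

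Between the deletion genotypes, contacts differed at 328 of the 1953 hub bins by edgeR, 85 of them higher and 243 lower in Intron. Of all 17744 bins 6.45% differed, 3.38% higher and 3.07% lower. With at least 100 contacts in every library, 16.9% of the hub bins and 13.3% of all bins differed. The genotype test of contacts was taken up after the data were seen. The Nabp1 bin was among those that were lower, at -0.50 ± 0.12 (SE, log2; edgeR adjusted p = 0.0153), as was its coverage at -0.62 (edgeR adjusted p = 0.00306).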

How the data were processed

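The deposited values are H3K27ac HiChIP tables of 1 kb bin pairs, 1 table for each of the 6 libraries, in mm10 (GRCm38) coordinates. Per the submitters' processing notes, CASAVA, Bowtie2 2.2.6 and HiC-Pro were used; no label or header names a loop caller. The authors deposited contact counts per pair and coverage counts per bin, both raw counts, and the tables list pairs with at least 20 contacts whose ends are both marked as peaks. Partners of a bin are its listed pairs. Bins were named by RefSeq genes of GRCm38.p6 with an end in the bin, else by genes over it. Coverage, or contacts summed over shared pairs, was tested with edgeR 4.0.16 (R 4.3.3; TMM scaling, quasi-likelihood test, Benjamini-Hochberg over all bins) in the 4 deletion libraries. The test was tried on simulated counts with the same IL-2 change in both deletion genotypes. That trial does not cover changes of unequal size, as were measured here. Named bins are the 15 richest, those of the gene lists, the 5 largest differences in each direction and those within 100 kb of Il2ra; others are said to be chosen later. The members and lists were chosen with earlier results of these data known.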

Additional observations from a re-analysis of the deposited data

How the results depend on the processing

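The genotype count of hub bins was 593. It lay between 397 and 854 with DESeq2 1.42.0, without TMM scaling, with all 6 libraries or with at least 500 counts in every library. In these alternatives 20.3% to 43.7% of the tested hub bins and 15.2% to 37.9% of all tested bins were called. It was 451 to 1299 when a library was left out of the fit of all 6, with 1299 without the Intron control and 1182 without the Intron IL-2 library, and 328 with contacts in place of coverage, an alternative chosen after the data were seen. The lower share of called hub bins was 72.7% to 86.0% over the fits of coverage. The IL-2 count was 0 for coverage, 2 with DESeq2 and 1 with contacts. Leaving out a library of the 6 gave 0 to 1283: without either Intron library 1283 hub bins (662 higher, 621 lower) were called, in fits that hold the WT control library that chose the members. For contacts the IL-2 count was 1, and 312 with all 6 libraries, 37 with library sizes from the whole tables, 0 with DESeq2, 0 with at least 100 counts, and 3 to 725 when a library was left out of the 6 (725 without either Intron library, 73 and 67 without Upstream control or IL-2, 17 and 3 without WT control or IL-2). The number of bins with 15 partners in all 6 libraries was 721, and 469 with the same number of pairs, 221 with at least 30 contacts per pair, 66 with adjacent partner bins counted once, 1495 with a threshold of 10 and 395 with a threshold of 20. The share at a gene end was 20.5%, and 37.9% when an adjacent bin counted. Over 130 named bins, the 1299 genotype values under the alternatives kept their direction, and 95 no longer passed the threshold, among them 1 each for the Tcf7 and Fosl1 bins and the lower of the Il2rb bins. The 430 IL-2 values of 43 bins kept their direction, and some passed the threshold that the reported values missed. Those could come only from DESeq2 and from the fits without an Intron library, which keep 1 Intron library. The other fits called 0 hub bins. Both sets of bins were picked mainly by their values in the reported fits, and the alternatives reuse those libraries. Kept direction is therefore little further support. No paired analysis was possible because each genotype and treatment has 1 library and no replicate numbers to pair; the IL-2 fit compares treatments within genotype, as genotype is a term in it. Depth limits the partner numbers, as pairs under 20 contacts are not listed.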
